A study of Perna viridis with 2 samples.

Results

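Carbonic anhydrases are zinc enzymes that convert carbon dioxide and water to bicarbonate and a proton, and back. In molluscs they are known from the mantle, the tissue that lines and builds the shell, where bicarbonate is needed for calcium carbonate, and nacrein, first known from pearl oysters, is a shell matrix protein with a carbonic anhydrase domain. The genes described here are the mantle entries of the green mussel Perna viridis whose best database match is named carbonic anhydrase or nacrein, or carries the bare symbol CA, and which reached 10 TPM in at least 1 of 2 mantle regions. TPM is a length-adjusted level in which each gene is a share of the total over all genes. The names gave 15 entries, of which 9 reached 10 TPM, among 5800 genes reaching that level and 78453 genes with values in all. No match was named nacrein.

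The regions were the periostracal groove, between the outer and middle folds of the mantle edge, where the organic outer layer of the shell is formed, and the submarginal zone, between the folds and the pallial line. All animals were untreated, with shells of 6 to 7 cm and a genotype given as unknown, and tissue of 6 animals was pooled in a sample. The design speaks of 3 biological replicates, but each region had 1 deposited profile, whose values have the form of a mean of 3, so no value has an error, no difference has a replicate check and no p-value is given. In whole tissue, fewer cells of a type and less RNA per cell cannot be told apart. In both tables the value column is headed with the name of the groove sample. Each table was assigned by the record that lists it, and every direction would turn if the tables had been exchanged. The profiles summed to 999875 TPM in groove tissue and 999820 TPM in submarginal tissue. At 1 TPM or more there were 27265 genes in groove tissue and 30571 in submarginal tissue.

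The members were chosen by name and level with their values known, so the levels below are a description. Some entries were high in the groove, a single entry was high in the submarginal zone, and a larger number were less than 4-fold apart. This grouping describes the entries and was not tested against other genes. A gene was counted as different at a 4-fold ratio, computed after adding 1 TPM to each value. Of the 9 entries, 2 were higher in the groove by 4-fold or more, beside 9.45% of all genes reaching 10 TPM. A single entry was higher in the submarginal zone by 4-fold or more, beside 12.4% of all such genes, and 6 were less than 4-fold apart.

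**Figure D1:**
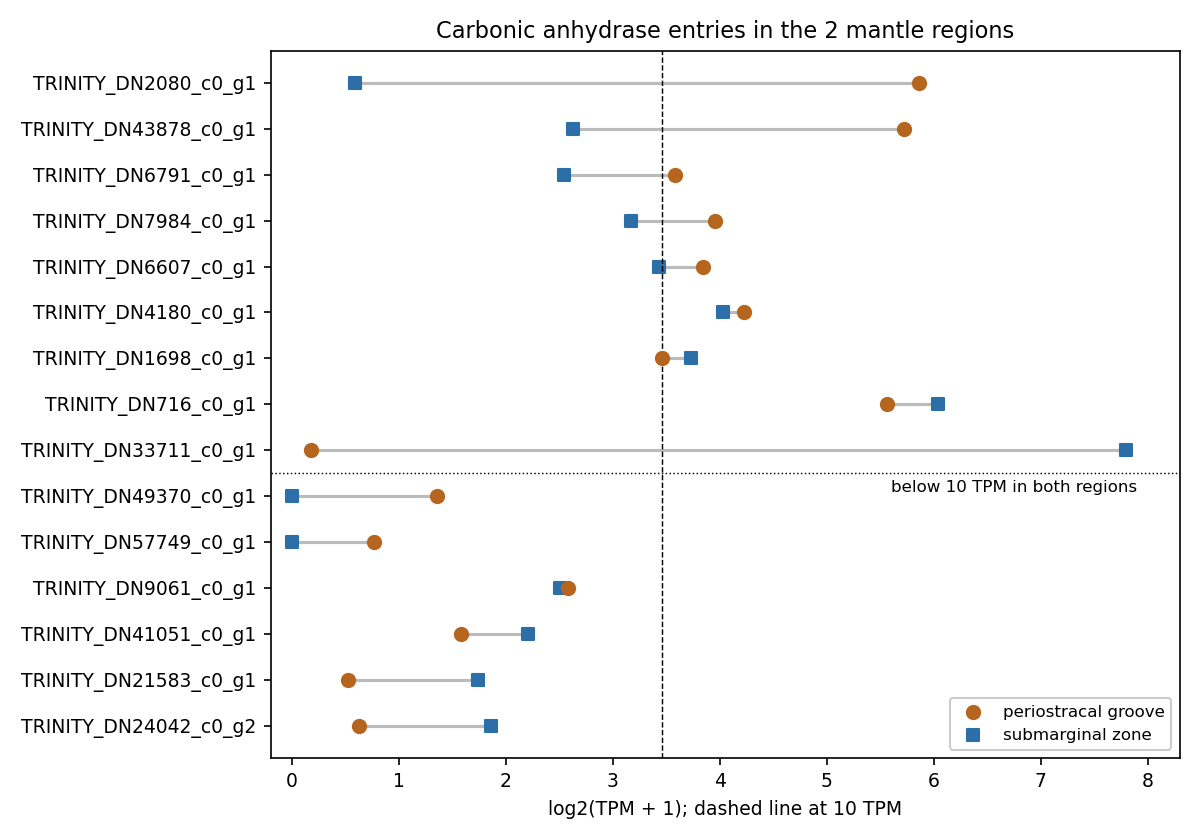
Level of each of the 15 carbonic anhydrase entries in the periostracal groove (circles) and the submarginal zone (squares), as log2(TPM + 1), 1 value per region with no error. The 9 entries above the dotted line reached 10 TPM. TRINITY_DN2080_c0_g1 and TRINITY_DN33711_c0_g1 have the longest connecting lines, in opposite directions.

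The groove-high entry with the highest level, TRINITY_DN2080_c0_g1, had 57.0 TPM in groove tissue and 0.507 TPM in submarginal tissue. Its log2 ratio of groove over submarginal zone was 5.27. It ranked 828 by level among all genes in groove tissue and 46243 in submarginal tissue. It was thus the first of the family in the groove and among the lowest of the family in the submarginal zone. Its match was a Mytilus coruscus protein annotated CA, which the naming rule reads as carbonic anhydrase and which gives no isoform.

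The other groove-high entry, TRINITY_DN43878_c0_g1, had 51.8 TPM in groove tissue and 5.19 TPM in submarginal tissue, a log2 ratio of 3.09. It also matched a CA of Mytilus coruscus. Its level in the groove was close to that of TRINITY_DN2080_c0_g1, but in the submarginal zone it was still detected at several TPM. The 2 entries summed to 108.8 TPM in groove tissue and 5.70 TPM in submarginal tissue.

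The entry with the opposite pattern, TRINITY_DN33711_c0_g1, had 0.133 TPM in groove tissue and 221 TPM in submarginal tissue, a log2 ratio of -7.62. This was the highest level of any carbonic anhydrase in either region. Among all genes it ranked 65439 in groove tissue and 351 in submarginal tissue. Among the 5800 genes reaching 10 TPM, 20 lay at least as far toward the submarginal zone, this entry included. By contrast, 144 lay at least as far toward the groove as TRINITY_DN2080_c0_g1, and 385 as far as TRINITY_DN43878_c0_g1. Each of these entries reached 10 TPM only in the region where it was high. The filter thus set its direction, and its place among all genes is a description. TRINITY_DN33711_c0_g1 matched a protein of Mytilus galloprovincialis named carbonic anhydrase.

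**Figure D2:**
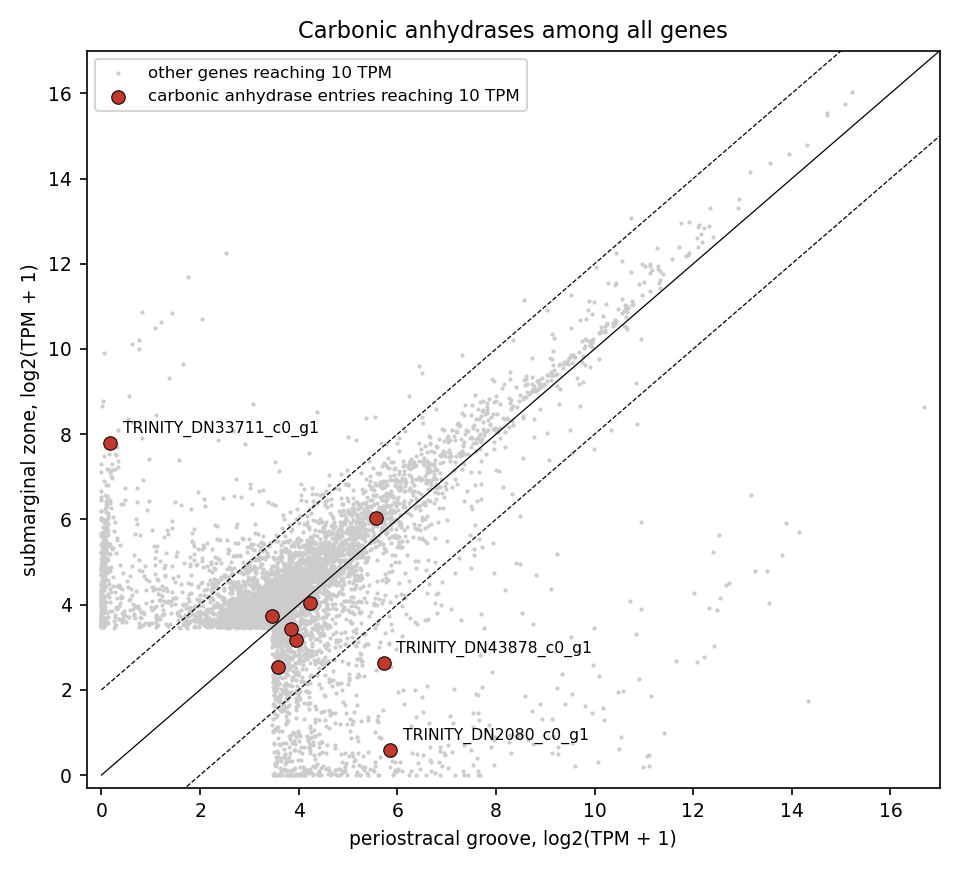
Level in the groove (x axis) against the submarginal zone (y axis) for the 5800 genes reaching 10 TPM, both as log2(TPM + 1); the 9 carbonic anhydrases are the large points, the solid line marks equal levels and the dashed lines 4-fold. TRINITY_DN33711_c0_g1 lies far above the upper dashed line, TRINITY_DN2080_c0_g1 and TRINITY_DN43878_c0_g1 lie below the lower one, and 6 entries lie between.

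The remaining 6 entries were expressed in both regions. TRINITY_DN716_c0_g1, a CA match, was the most abundant of them, with 46.2 TPM in groove tissue and 64.6 TPM in submarginal tissue (log2 ratio -0.47). It was the third highest of the family in the groove and the second highest in the submarginal zone. TRINITY_DN4180_c0_g1, named carbonic anhydrase, had 17.7 TPM in groove tissue and 15.3 TPM in submarginal tissue (log2 ratio 0.20). Only these 2 of the 9 entries reached 10 TPM in both regions.

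The 4 lower entries were all less than 4-fold apart. Each reached 10 TPM only in the region where it was higher, so the filter set its direction. TRINITY_DN7984_c0_g1 had 14.5 TPM in the groove against 7.98 TPM in the submarginal zone, and TRINITY_DN6607_c0_g1 had 13.3 TPM in groove tissue and 9.79 TPM in submarginal tissue. TRINITY_DN6791_c0_g1 had 10.96 TPM in groove tissue and 4.84 TPM in submarginal tissue, with a log2 ratio of 1.04. TRINITY_DN1698_c0_g1 had 9.96 TPM in groove tissue and 12.3 TPM in submarginal tissue. Its log2 ratio of -0.27 became 0.06 with median-of-ratios scaling and 0.04 with upper-quartile scaling. Summed, the 6 entries had 112.7 TPM in groove tissue and 114.8 TPM in submarginal tissue.

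The order of the entries therefore differed between the regions. In the groove it ran from TRINITY_DN2080_c0_g1 through TRINITY_DN43878_c0_g1 and TRINITY_DN716_c0_g1 to TRINITY_DN4180_c0_g1, with a gap between the third and the fourth. In the submarginal zone it ran from TRINITY_DN33711_c0_g1 through TRINITY_DN716_c0_g1 to TRINITY_DN4180_c0_g1 and TRINITY_DN1698_c0_g1. With 1 profile per region there is no spread to say which neighbours in these orders differ.

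At 2-fold, 3 of the 9 entries were higher in the groove, beside 15.2% of all genes reaching 10 TPM, and 1 was higher in the submarginal zone, beside 27.6%. At 8-fold, 2 entries were higher in the groove, beside 6.78%, and 1 in the submarginal zone, beside 8.59%. The median log2 ratio of the 9 entries was 0.41, whereas that of the 5800 genes was -0.55. Of the 9, 6 had the higher value in the groove. The filter set the direction of 5 of these, which reached 10 TPM only in the groove. The smallest log2 ratio of the 6 was 0.20, and 23.6% of all 5800 genes lay at least as far toward the groove. The median size of the log2 ratio in either direction was 0.79 for the 9 and 0.86 for all 5800 genes. Median-of-ratios scaling moved the log2 ratios up by at most 0.36 and upper-quartile scaling by at most 0.34, so that the median of the 9 became 0.74 and 0.72 under these scalings, while that of all genes stayed below 0 at -0.21 and -0.23.

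**Figure D3:**
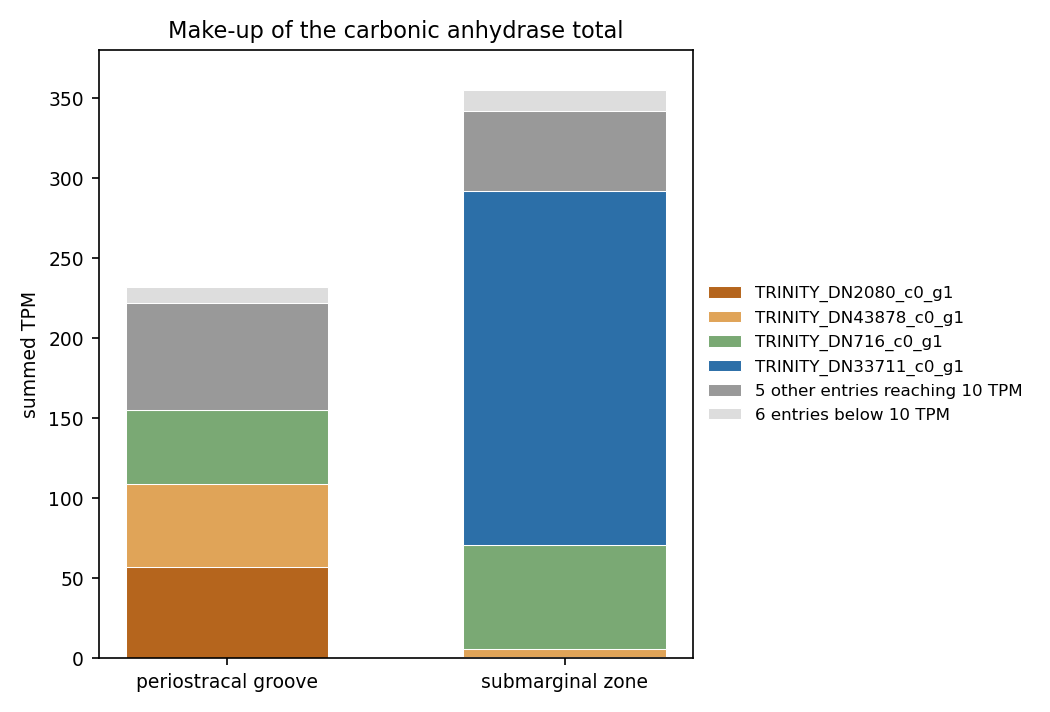
Summed TPM of all 15 carbonic anhydrase entries in the groove (left) and the submarginal zone (right), divided by entry; there are no error bars because each region has 1 profile. The totals are 232 TPM in groove tissue and 355 TPM in submarginal tissue, and TRINITY_DN33711_c0_g1 makes up the largest block of the submarginal zone and is too small to see in the groove.

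The family total was lower in groove tissue, at 232 TPM against 355 TPM in the submarginal zone (log2 ratio -0.61), and its make-up was different. In the groove the 3 highest entries, TRINITY_DN2080_c0_g1, TRINITY_DN43878_c0_g1 and TRINITY_DN716_c0_g1, held 66.9% of the total, with 24.6% and 22.3% in the first 2. In the submarginal zone TRINITY_DN33711_c0_g1 alone held 62.3%, and TRINITY_DN716_c0_g1 another 18.2%. The 2 groove-high entries held 46.9% of the family total in groove tissue and 1.60% in submarginal tissue. Without TRINITY_DN33711_c0_g1 the totals were 232 TPM in groove tissue and 134 TPM in submarginal tissue, and the log2 ratio turned to 0.79. The direction of the family total thus rested on that entry.

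Below the threshold lay 6 entries with maxima of 0.697 to 4.96 TPM. The 2 nearest to it were TRINITY_DN9061_c0_g1, with 4.96 TPM in groove tissue and 4.69 TPM in submarginal tissue, and TRINITY_DN41051_c0_g1, with 1.99 TPM in groove tissue and 3.60 TPM in submarginal tissue. On the other side of the threshold, the lowest entries that passed were TRINITY_DN6791_c0_g1 and TRINITY_DN1698_c0_g1. The match of TRINITY_DN9061_c0_g1 carries the names of several vertebrate carbonic anhydrases at once, including the mitochondrial forms 5A and 5B. Of the 6, 3 had the higher value in groove tissue and 3 in submarginal tissue, none by 4-fold after adding 1 TPM. TRINITY_DN49370_c0_g1 and TRINITY_DN57749_c0_g1 had 1.56 and 0.697 TPM in the groove and were both listed at 0 in the submarginal zone. TRINITY_DN24042_c0_g2 had 0.540 TPM in groove tissue and 2.62 TPM in submarginal tissue, and TRINITY_DN21583_c0_g1 had 0.437 TPM in groove tissue and 2.33 TPM in submarginal tissue. An entry with the symbol CA2, which names a cytosolic carbonic anhydrase in vertebrates, is outside the naming rule. It had 8.20 TPM in groove tissue and 17.7 TPM in submarginal tissue.

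The database matches were all from mussels of the genus Mytilus, 8 from Mytilus coruscus, 3 from Mytilus edulis and 4 from Mytilus galloprovincialis. Of the 15 entries, 10 bore the bare symbol CA and no fuller name, and both groove-high entries are among them. All 15 came from different assembly clusters, the groups of related fragments that the assembler numbers. Matches alone do not show whether entries are separate genes or fragments of the same gene, so reads may be divided among them. The DN numbers of 4 members were shared by 7 further entries with no description, none of which reached 10 TPM. All 7 lay on the same side as the member beside them. Their levels were low, at 3.75 TPM or less, and they may be fragments of the same gene, so this is no separate evidence. TRINITY_DN33711_c0_g1 had 4 such entries, of which 3 were listed at 0 in the groove and had 0.717, 0.927 and 0.817 TPM in the submarginal zone. The entry beside TRINITY_DN49370_c0_g1 had 2.01 TPM in the groove and was listed at 0 in the submarginal zone, as that member was.

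Genes with product names whose pair of values was most like that of a member were found by the Euclidean distance in log2(TPM + 1) over the 2 regions. With only 2 values this likeness covers a level and a ratio and nothing more. Nearest to TRINITY_DN2080_c0_g1 were complement C1q-like protein 2, with 56.8 TPM in groove tissue and 0.453 TPM in submarginal tissue (distance 0.052), a c-type lysozyme (distance 0.28) and the lipocalin APOD (distance 0.35). Nearest to TRINITY_DN43878_c0_g1 was the tyrosinase-like tyr-3 protein, with 57.5 TPM in groove tissue and 4.80 TPM in submarginal tissue (distance 0.18). FK506-binding protein 14 (distance 0.42) and a peroxidasin, PXDN (distance 0.50), followed. Nearest to TRINITY_DN33711_c0_g1 were TSSK, a testis-specific serine kinase, with 0.103 TPM in groove tissue and 144 TPM in submarginal tissue (distance 0.62), KLHL28 (distance 0.63) and the actin ACTB_G1 (distance 0.66).

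Because bicarbonate and protons must cross membranes, genes of related transport and of bicarbonate use were set beside the family. A list of shell matrix genes was added and is counted with them. Across 7 lists, 35 genes reached 10 TPM, of which 4 exceeded 4-fold toward the groove and 4 toward the submarginal zone. This is 11.4% each way, near the 9.45% and 12.4% of all genes in these directions, and the median log2 ratio of -0.53 was near the -0.55 of all genes. The genes beyond 4-fold were carriers, a pump subunit, a channel and a shell protein, and none was among the 15 proton transport genes or the 3 carboxylases.

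**Figure D4:**
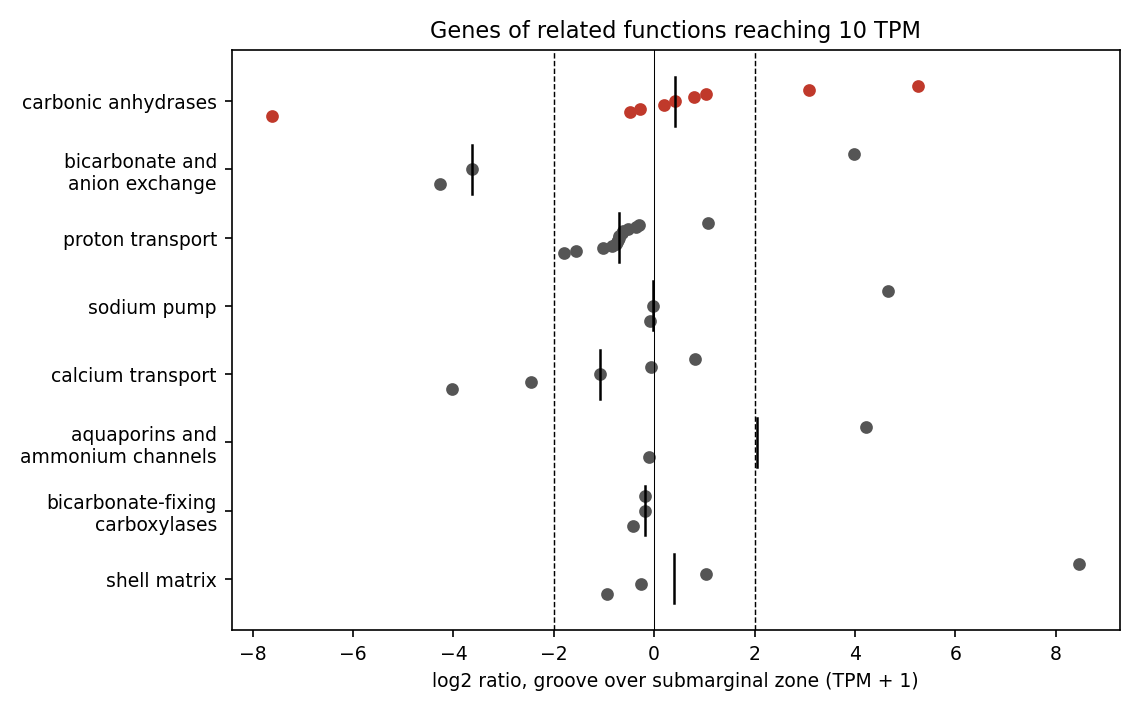
Log2 ratio of groove over submarginal zone (x axis, TPM + 1) for each gene reaching 10 TPM in the carbonic anhydrase family (top row) and in 7 lists of related function; points are genes, short vertical lines list medians and dashed lines 4-fold in either direction. The anion exchange row has genes beyond both dashed lines, as the carbonic anhydrase row has, while the proton transport points all lie between them.

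Of 3 bicarbonate and anion carriers reaching 10 TPM, 1 exceeded 4-fold toward the groove and 2 toward the submarginal zone. Among all genes reaching that level the shares were 9.45% and 12.4%. SLC4A8, a sodium-driven bicarbonate exchanger in mammals, had 16.2 TPM in groove tissue and 0.0867 TPM in submarginal tissue (log2 ratio 3.98). A pair of genes matching SLC26A11, an anion transporter of the SLC26 family, had the opposite order. They had 1.17 TPM in the groove against 40.7 TPM in the submarginal zone, and a listed 0 in the groove against 11.3 TPM in the submarginal zone. These 3 were all the genes of the list of 12 that reached 10 TPM. Each reached it only in the region where it was high, so the filter set its direction.

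Proton transport genes were mostly lower in the groove by less than 4-fold. Of 15 reaching 10 TPM, 14 had the lower value in the groove, with a median log2 ratio of -0.71, next to -0.55 for all 5800 genes.  All 14 lay at least as far toward the submarginal zone as TRINITY_DN1698_c0_g1 (log2 ratio -0.27), as did 63.5% of the 5800 genes. This cutoff lies just short of the smallest difference among the 14 (log2 ratio -0.30), so it could not divide them. The share of the 5800 genes with any lower value in the groove is larger and was not counted. Several of the 14 reached 10 TPM only in the submarginal zone, so the filter set their direction. With median-of-ratios scaling the medians of the list and of all genes were -0.37 and -0.21. The V-type ATPase subunit ATPeV1H, part of the proton pump, had 3.34 TPM in groove tissue and 11.9 TPM in submarginal tissue. A sodium/hydrogen exchanger annotated as member 10/11 of family 9 had 2.57 TPM in groove tissue and 11.4 TPM in submarginal tissue. The exception was SLC9A3, another sodium/hydrogen exchanger, with 15.2 TPM in groove tissue and 6.72 TPM in submarginal tissue. It reached 10 TPM only in the groove.

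Of 3 sodium pump genes reaching 10 TPM, 1 exceeded 4-fold toward the groove, as did 1 of 2 water channel genes, beside 9.45% of all genes. Both reached 10 TPM only in the groove, so the filter set their direction. The other copies had similar levels in both regions. ATP1B, the beta subunit of the sodium pump, was present as TRINITY_DN3437_c0_g2 with 33.5 TPM in groove tissue and 0.357 TPM in submarginal tissue. A second ATP1B had 56.6 TPM in groove tissue and 59.6 TPM in submarginal tissue, and the catalytic subunit ATP1A had 71.0 TPM in groove tissue and 71.8 TPM in submarginal tissue. The water channel AQP4 likewise had an entry with 47.7 TPM in groove tissue and 1.62 TPM in submarginal tissue. Another AQP4 had 34.9 TPM in groove tissue and 37.8 TPM in submarginal tissue. No other water or ammonium channel reached 10 TPM.

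Of 5 calcium transport genes, 2 exceeded 4-fold toward the submarginal zone, beside 12.4% of all genes. Both were sodium/calcium exchangers of family 8 that reached 10 TPM only in that zone. They had 0.203 TPM in the groove against 18.6 TPM in submarginal tissue, and 2.86 TPM in the groove against 20.2 TPM in the submarginal zone. Another exchanger of family 8, named after its value was seen, had 12.5 TPM in groove tissue and 6.71 TPM in submarginal tissue. A calcium pump of the endoplasmic reticulum had 64.9 TPM in groove tissue and 139 TPM in submarginal tissue. The carboxylases, which fix bicarbonate, were close in both regions, with PC, the symbol of pyruvate carboxylase, at 17.7 TPM in groove tissue and 20.1 TPM in submarginal tissue. PCCA had 7.47 TPM in groove tissue and 10.4 TPM in submarginal tissue, and the beta chain of propionyl-CoA carboxylase had 13.1 TPM in groove tissue and 15.1 TPM in submarginal tissue. Of 4 shell matrix genes, 1 exceeded 4-fold toward the groove, beside 9.45% of all genes. This was shell protein-3, with 9781 TPM in groove tissue and 26.5 TPM in the submarginal zone. Nacre protease inhibitor-like protein 1 had 128 TPM in groove tissue and 62.2 TPM in submarginal tissue, and a perlucin-like protein had 19.1 TPM in groove tissue and 37.6 TPM in submarginal tissue.

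Markers of other cell types also differed between the regions, and the germ-cell list was the furthest apart of the 5 lists examined, by the ratio of its sums. Of its 36 entries, 11 reached 10 TPM and 9 of those exceeded 4-fold toward the submarginal zone, beside 12.4% of all genes. Most of the 9 passed only through the submarginal value, so the filter set their direction. With median-of-ratios or upper-quartile scaling or a pseudocount of 5 TPM the count was 7. The list summed to 120 TPM in groove tissue and 640 TPM in submarginal tissue. Its entries listed at 0 in the groove, NANOS3 and a piwi-like protein, had only 0.85 and 0.65 TPM in the submarginal zone. It contains TSSK, the gene nearest in pattern to TRINITY_DN33711_c0_g1. It also contains PIWIa, of the germline small-RNA pathway, which had 19.3 TPM in groove tissue and 95.6 TPM in submarginal tissue.

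Muscle and ciliary genes were likewise lower in the groove as sums. Of 66 muscle entries, 14 reached 10 TPM, with 1 beyond 4-fold in each direction, beside 9.45% of all genes toward the groove and 12.4% toward the submarginal zone. The muscle list summed to 5395 TPM in groove tissue and 16224 TPM in submarginal tissue. Paramyosin, of molluscan thick filaments, had 1392 TPM in groove tissue and 4900 TPM in submarginal tissue. A myosin heavy chain, the motor of muscle, had 1043 TPM in groove tissue and 3876 TPM in submarginal tissue. In the other direction a titin, named after its value was seen, had 35.3 TPM in groove tissue and 0.843 TPM in submarginal tissue. Of 120 ciliary entries, 37 reached 10 TPM, all with the lower value in the groove, and many passed only through the submarginal value. All 37 lay at least as far toward the submarginal zone as TRINITY_DN716_c0_g1 (log2 ratio -0.47), as did 54.1% of all 5800 genes. This cutoff lies just short of the smallest difference among the 37 (log2 ratio -0.58), so it could not divide them. The share of all 5800 genes with any lower value in the groove is larger and was not counted. By 4-fold or more 7 of the 37 were lower, beside 12.4% of all genes. With median-of-ratios or upper-quartile scaling or a pseudocount of 5 TPM this count was 4. The ciliary list summed to 544 TPM in groove tissue and 1541 TPM in submarginal tissue. Enkurin had 29.8 TPM in groove tissue and 113 TPM in submarginal tissue, and tektin-2, of ciliary microtubules, had 25.7 TPM in groove tissue and 106 TPM in submarginal tissue.

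The sums of the haemocyte and neuron lists were closer. Of 31 haemocyte entries, 20 reached 10 TPM, with 3 beyond 4-fold toward the groove and 1 toward the submarginal zone. Among all genes reaching 10 TPM these shares were 9.45% and 12.4%. With a pseudocount of 5 TPM the haemocyte counts were 3 and 0. The haemocyte list summed to 2293 TPM in groove tissue and 2688 TPM in submarginal tissue. The antimicrobial peptide mytilin 8 and the highest entry named mytilin 3 had 545 and 243 TPM in groove tissue, against 889 and 626 TPM in submarginal tissue. Other entries named mytilin 3 were closer, with 109 and 23.6 TPM in groove tissue against 122 and 24.1 TPM in submarginal tissue. The 3 beyond 4-fold on the groove side were lysozymes (chosen with their values known), led by C-type lysozyme 3 with 432 TPM in groove tissue and 10.7 TPM in submarginal tissue. Of 54 neuron entries, 5 reached 10 TPM and none exceeded 4-fold, beside 9.45% of all genes toward the groove and 12.4% toward the submarginal zone. Their median log2 ratio was -1.25, beside -1.12 for the muscle list and -0.55 for all genes reaching 10 TPM. ELAVL1 and neuropeptide S receptor 1 passed only through the submarginal value, so the filter set their direction. The neuron list summed to 195 TPM in groove tissue and 274 TPM in submarginal tissue. An APGW-amide-related neuropeptide had 43.9 TPM in groove tissue and 108 TPM in submarginal tissue, whereas the acetylcholine receptor subunit CHRNA3 had 53.9 TPM in groove tissue and 23.8 TPM in submarginal tissue. The part of these cell types in the carbonic anhydrase levels was not tested.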

How the data were processed

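RNA of 2 mantle regions was sequenced after TruSeq library preparation, per the labels' protocols. fastp was among the tools used, per the submitters' processing notes. Gene identifiers have the form that Trinity writes, whereas no source used here states its version, the annotation database or the quantifier. The authors deposited 1 TPM value per assembled gene and region for 78458 genes, of which 5 had no value and were left out. All values were whole multiples of 1/300 (tolerance 0.002 on the value times 300), the step of a mean of 3 values with 2 decimals. They were therefore taken as the authors' means, with no SD or n. Read depth cannot be recovered from TPM and is unknown, which leaves no interval for counting error.

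Quotes and the bracketed organism were removed from the match names. Ratios are log2 of groove over submarginal zone after a pseudocount of 1 TPM, which understates changes of low genes. The comparison covered genes at 10 TPM or more in at least 1 region, with 4-fold as the threshold and no test. All 9 carbonic anhydrases reaching 10 TPM are named. The rule also named the 2 below it that lie nearest (the other 4 below it were added after their values were seen), up to 3 genes per related list by absolute ratio, 2 per cell type list by mean level, and the 3 nearest genes of each 4-fold member. Members and lists were chosen with earlier results of these data known. Name patterns of proton and calcium transport, carboxylases, channels and germ cells were corrected after names and values had been seen. The counting of 4-fold differences was checked on simulated profiles with known folds. Alternatives were other pseudocounts, minimums, folds, scalings, name rules and summed clusters. Calculations ran in Python 3.11.15 with pandas 2.3.3 and numpy 2.4.6, and plots in matplotlib 3.10.9. Proteome data, a genome and sequences were not used here.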

Additional observations from a re-analysis of the deposited data

How the results depend on the processing

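The calls of 2 carbonic anhydrases toward the groove and 1 toward the submarginal zone held under both other pseudocounts, all 3 scalings, minimums of 5 and 20 TPM, the 8-fold threshold, summed clusters and the addition of CA2, which was chosen after seeing the data. At 2-fold the counts were 3 and 1. Without the bare symbol CA, 2 entries reached 10 TPM, 0 of them at least 4-fold toward the groove, the median log2 ratio was -3.71 and that of the family total -3.24. The median was 1.31 with a minimum of 20 TPM, where 4 entries remained. The log2 ratio of the total was 0.79 without TRINITY_DN33711_c0_g1 and between -1.02 and -0.25 under the other alternatives for the same names. Pseudocounts of 0.1 and 5 TPM gave TRINITY_DN33711_c0_g1 -9.89 and -5.46, and TRINITY_DN2080_c0_g1 6.56 and 3.49. With 5 TPM, TRINITY_DN43878_c0_g1 had 2.48, and 1 anion carrier and 1 calcium exchanger in place of 2 each passed 4-fold in the submarginal zone. With 0.1 TPM, 1 proton transport gene passed there. Of 45 values of single members under 5 alternatives, 2 changed sign, both of TRINITY_DN1698_c0_g1, and 0 crossed 4-fold. Among all genes 1267 were 4-fold apart, 775 with pseudocount 5 TPM, and 1904 and 816 with minimums of 5 and 20 TPM, and 2481 were 2-fold apart. No paired analysis was possible because each region has 1 profile, which also leaves no replicate to leave out. The unknown depth limits how far values under 1 TPM can be read.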
